A study of Mus musculus with 6 samples.

Results

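Glycolytic enzymes are described here as 10 genes chosen by symbol: Hk2, Gpi1, Aldoa, Tpi1, Gapdh, Pgk1, Pgam1, Eno1, Pkm and Ldha. All 10 were among the 15643 genes of the deposited table, and all 10 passed the filter on low counts that left 11956 genes for testing. The libraries were made from sorted mature medullary thymic epithelial cells (mTEChi), the stromal cells of the thymus that show proteins of other tissues to developing T cells. All mice were of the NOD strain, which is prone to autoimmune diabetes, and 4.5 weeks old. The 3 libraries labelled Aire_WT (745, 750 and 753) carried the genotype Aire +/+ and the 3 labelled Aire_KO (746, 748 and 749) carried Aire -/-. The labels give no treatment, no sex and no detail of the deleted part of Aire, and whether the numbers stand for different mice is not stated, so the p-values reflect only how far these libraries differ from each other.

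Glycolysis turns glucose into pyruvate in the cytosol and yields ATP and NADH, and lactate dehydrogenase regenerates NAD+ when pyruvate is reduced to lactate. Most steps can be carried out by several isozymes, of which some are present in nearly all cells and others are characteristic of liver, muscle, brain or testis. Aire is a transcriptional regulator that lets mature medullary epithelial cells transcribe many genes of peripheral tissues. The 10 genes are mainly the widely expressed isozymes, and Gapdh is often used as a reference gene for expression measurements. Many glycolytic genes are known targets of the hypoxia-inducible factor HIF-1, whose response element has the core ACGTG, and of MYC, which binds the E-box CACGTG.

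Promoters are shown for 4 genes on which the results turn, with 1 window for each gene. Gapdh was nearly missing from 1 library of each genotype, and Aldoa was the member that passed the test. The lactate dehydrogenase genes Ldha and Ldhb form a pair whose responses differed. Each window runs from 250 bases before to 50 bases after a transcription start, 5′ to 3′ on the strand of the gene. The windows come from RefSeq (GRCm38.p6, the build that mm10 names). Capitals mark ACGTG on either strand, which includes any CACGTG.
Gapdh, chr6:125165724-125166023, minus strand: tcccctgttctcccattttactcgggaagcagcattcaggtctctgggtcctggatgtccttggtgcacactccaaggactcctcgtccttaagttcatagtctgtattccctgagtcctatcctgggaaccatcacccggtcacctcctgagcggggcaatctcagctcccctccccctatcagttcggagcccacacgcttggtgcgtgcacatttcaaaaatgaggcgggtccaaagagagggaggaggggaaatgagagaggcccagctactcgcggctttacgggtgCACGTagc
Aldoa, chr7:126799205-126799504, minus strand: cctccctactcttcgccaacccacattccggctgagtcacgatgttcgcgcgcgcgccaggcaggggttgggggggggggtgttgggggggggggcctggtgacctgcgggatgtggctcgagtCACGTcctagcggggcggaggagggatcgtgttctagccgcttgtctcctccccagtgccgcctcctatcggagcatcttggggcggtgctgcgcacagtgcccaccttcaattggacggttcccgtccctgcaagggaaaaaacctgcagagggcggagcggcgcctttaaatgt
Ldha, chr7:46845554-46845853, plus strand: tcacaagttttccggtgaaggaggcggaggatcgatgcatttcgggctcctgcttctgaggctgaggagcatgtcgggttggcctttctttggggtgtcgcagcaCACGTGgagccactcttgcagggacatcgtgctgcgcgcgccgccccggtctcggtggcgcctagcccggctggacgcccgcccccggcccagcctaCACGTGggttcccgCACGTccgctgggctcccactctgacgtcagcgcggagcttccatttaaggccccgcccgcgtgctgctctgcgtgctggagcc
Ldhb, chr6:142507908-142508207, minus strand: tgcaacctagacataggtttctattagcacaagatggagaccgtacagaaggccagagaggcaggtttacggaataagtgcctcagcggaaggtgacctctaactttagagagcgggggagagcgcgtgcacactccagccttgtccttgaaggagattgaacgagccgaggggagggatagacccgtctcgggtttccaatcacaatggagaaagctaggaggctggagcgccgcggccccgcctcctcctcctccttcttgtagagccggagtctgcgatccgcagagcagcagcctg
The Ldha window shown held 3 such sites, of which 2 were CACGTG. The Gapdh window and the Aldoa window shown held 1 each, and the Ldhb window held 0. A further RefSeq window of Ldha held 0 sites. Of the Aldoa windows not shown, 1 held 0 and 1 held the same site as the window shown. RefSeq lists 16 promoter windows for the 10 genes. Of them 8, from 7 genes, held ACGTG on either strand, against 19.6% of all 32851 promoter windows of that length. Windows of 1 gene can overlap, as for Aldoa, where the shared site counts in each window, so the windows are not independent. The E-box CACGTG was in 7.2% of all windows. These matches describe letters only and say nothing of binding in these cells.

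The libraries held 2736932 to 2887321 unique molecular identifiers (UMIs, each counting a captured 3′ end) in Aire_WT and 1014581 to 1960802 in Aire_KO, so depth and genotype move together. Aire itself had 6290, 6783 and 7290 UMIs in Aire_WT and 4772, 8298 and 8372 in Aire_KO. Relative to depth, it was higher in the libraries labelled Aire_KO, by 1.10 on the log2 scale (edgeR adjusted p = 7.78e-05). Whether the counted 3′ tag lies in the deleted part is not given, so these counts check nothing about the genotype. All 14 markers listed for medullary epithelium in general and for its mature cells were present. Their summed level was 40315 to 48011 CPM in Aire_WT and 70540 to 80277 CPM in Aire_KO. CPM is UMIs relative to the library total, as edgeR's cpm function gives it after scaling by TMM factors. Markers of cortical thymic epithelium (7 of 7 in the table) summed to 1354 to 1652 CPM in Aire_WT and 2318 to 3046 CPM in Aire_KO. Of these, 6 of 6 tested were called higher, as were 6 of the 14 medullary markers, against 8.59% of all tested genes. Of the markers of other cells, thymocyte genes (12 of 13 in the table) summed to 170 to 309 against 178 to 323 CPM, dendritic cell and macrophage genes (9 of 10) to 1310 to 1455 against 1552 to 2562 CPM, and fibroblast genes (5 of 7, without Pdgfra and Lum) to 67.9 to 106 against 157 to 626 CPM, highest in 746. Of the tested fibroblast markers 2 of 4 were called higher and 0 lower, and of the thymocyte markers 0 of 11 were called. Of 9 dendritic cell and macrophage markers, 1 was called higher and 1 lower. No thymocyte, macrophage or fibroblast marker in the table was at 0 in any library. The part of these markers in the results below was not tested. In such sorted pools, a lower level in each cell and fewer cells that transcribe a gene cannot be told apart.

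Gapdh, the dehydrogenase that oxidizes glyceraldehyde 3-phosphate, was nearly missing from 1 library of each genotype and abundant in the other 4. It had 4166, 3421 and 90 UMIs in the Aire_WT libraries 745, 750 and 753, and 28, 2245 and 3954 UMIs in the Aire_KO libraries 746, 748 and 749. As levels, these were 1377, 1139 and 30.5 CPM and 29.0, 1217 and 2436 CPM. The low libraries, 753 and 746, therefore sat side by side at about the same level although they belong to different genotypes, and the genotypes overlapped fully. This split was known when Gapdh was chosen, so it and the comparisons with other genes below are a description with no test.

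The mean of the other libraries of the genotype was 41.3-fold above 753 and 63.0-fold above 746. The exact Poisson 95% interval, which covers counting error only, was 72.4 to 111 UMIs for the 90 in library 753 and 18.6 to 40.5 UMIs for the 28 in library 746. Library 753 was among the deepest (2887321 UMIs) and 746 was the shallowest (1014581 UMIs). The ratios were 43.7 and 60.0 per library total, and 42.9 and 66.4 relative to the summed UMIs of the other 9 enzymes. Even among the libraries with abundant Gapdh the level varied, by 1.21-fold between 745 and 750, and 749 (2436 CPM) stood well above 748 (1217 CPM).

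The spread of other abundant genes was smaller than that of Gapdh in each genotype. Among 1365 genes with a mean of at least 100 CPM in both genotypes, the median ratio of the highest to the lowest library was 1.17 in Aire_WT and 1.27 in Aire_KO, on CPM + 1, and Gapdh ranked 1 in each. Of these genes, 2 exceeded 5-fold in Aire_WT and 4 in Aire_KO, and only Gapdh did so in both. Among all 11956 tested genes, Gapdh was the only gene at least 4-fold lower in 753 and in 746 than in each other library of the same genotype, and 0 genes were at least 4-fold higher in both. Smaller gaps in both genotypes were seen elsewhere: 3 of the 1365 genes, Gapdh, Mir682 and Rpl37a, exceeded 2-fold in both. The ratios were 3.26 and 4.36 for Mir682 and 2.39 and 2.15 for Rpl37a. In Aire_KO the lowest library of Mir682 was 749 (156 CPM), while 746 stood at 447 CPM. At 2-fold, 3 tested genes, Gapdh among them, were lower in both 753 and 746. Rps2, a ribosomal protein gene, had 168 UMIs in 753 against 5142 in 745 and 3774 in 750, but 2919, 3623 and 3983 UMIs in Aire_KO.

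**Figure D1:**
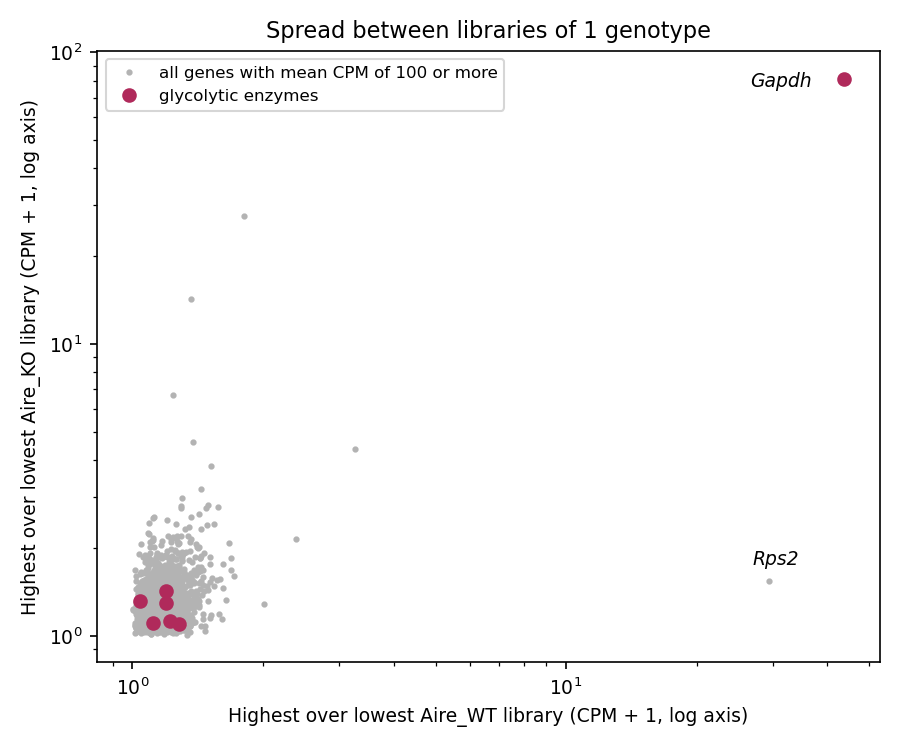
Ratio of the highest to the lowest library within Aire_WT (horizontal, log axis) and within Aire_KO (vertical, log axis), on CPM + 1, for 1365 genes with a mean of at least 100 CPM in both genotypes. Glycolytic enzymes are in red, and Gapdh lies far from the other genes on both axes while Rps2 does so only in Aire_WT. Some other genes lie far out only in Aire_KO, where 4 genes, Gapdh included, exceeded 5-fold.

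The 5 tested genes whose log2 CPM followed Gapdh most closely over the 6 libraries were Serf2 (Pearson r = 0.99), R3hcc1l (0.99), Rpl7l1 (0.98), Lman2l (0.96) and Cnih2 (0.96), given as a description over 6 points that share their libraries. Their changes were far smaller than that of Gapdh. Serf2 had 46.9, 47.3 and 39.3 CPM in Aire_WT and 39.3, 46.1 and 49.3 CPM in Aire_KO. R3hcc1l had 19.8, 21.3 and 12.5 CPM in Aire_WT and 12.4, 19.5 and 24.0 CPM in Aire_KO.

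The Gapdh gene (chr6:125161715-125166467, mm10, minus strand) has a large family of processed pseudogenes. The last 300 nt of its principal transcripts matched 236 other annotated genes, 231 of them pseudogenes, over at least 80 nt at 90% identity or more. Of these, 7 were in the table, and their summed UMIs were 58, 100 and 76 in Aire_WT and 49, 47 and 56 in Aire_KO. The closest, the pseudogene Gm12070, is identical over 122 nt and had 5, 11 and 12 UMIs in Aire_WT and 14, 12 and 5 in Aire_KO. The 7 copies thus held far fewer UMIs in 753 and 746 than Gapdh held in the other libraries. With the copies added to Gapdh, the ratios were 22.9 and 23.3. How reads that match several genes were counted is not given in the sources used here, so the division of reads between Gapdh and copies outside the table was not tested. Annotated neighbours did not share the pattern: Ncapd2 had 59, 75 and 62 UMIs in Aire_WT and 25, 37 and 30 in Aire_KO, and Iffo1, whose annotated end overlaps the 3′ end of Gapdh on the opposite strand, had 2 to 19 UMIs in every library.

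The other 9 enzymes did not show the split. Their summed level was 2491, 2820 and 2728 CPM in Aire_WT and 3230, 3268 and 2977 CPM in Aire_KO, and library 753 lay between its replicates. All 3 Aire_KO sums were above the 3 Aire_WT sums. With Gapdh included, the 10 enzymes made up 0.282% of all UMIs in 753 and 0.310% in 746, against 0.419% to 0.482% in the other 4 libraries. Without Gapdh the range was 0.265% to 0.308% over all 6 libraries, so per library total the genotypes overlapped. Apart from Gapdh, 6 enzymes had a mean of at least 100 CPM in Aire_WT, and their highest library was 1.04 to 1.28 times their lowest in Aire_WT and 1.09 to 1.42 times in Aire_KO.

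**Figure D2:**
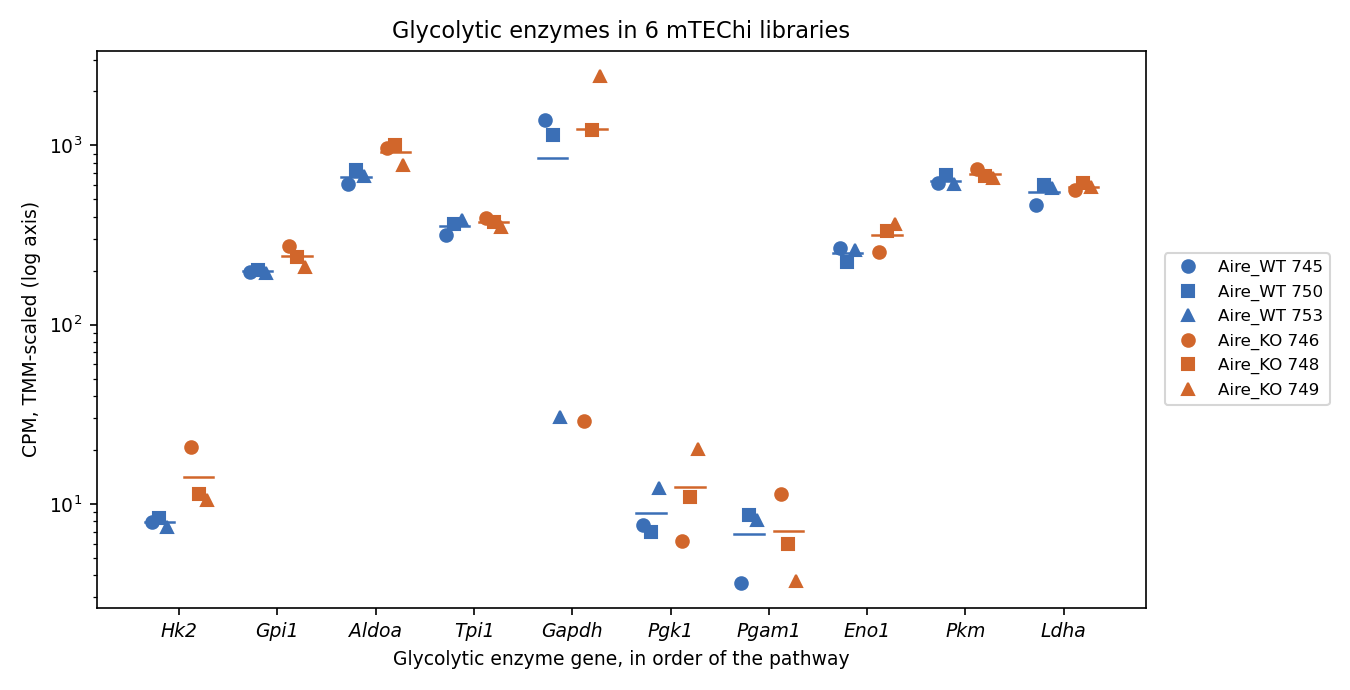
Level of each glycolytic enzyme gene in each library (CPM scaled by TMM, log axis), in the order of the pathway, with horizontal bars for the mean of 3 libraries. Gapdh falls to about 30 CPM in Aire_WT 753 and Aire_KO 746 while the other abundant enzymes stay close together in all 6 libraries.

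In the upper part of the pathway, Aldoa was called and Hk2, Gpi1 and Tpi1 were not. Hk2, the inducible hexokinase that traps glucose as glucose 6-phosphate, had 24, 25 and 22 UMIs in Aire_WT and 20, 21 and 17 in Aire_KO, or 7.93, 8.32 and 7.45 CPM against 20.7, 11.4 and 10.5 CPM. The levels did not overlap, with the highest in 746, but the counts were low and the difference was not called (0.77 ± 0.32, here and below the log2 fold change of Aire_KO over Aire_WT ± its standard error, edgeR adjusted p = 0.122). Gpi1, which turns glucose 6-phosphate into fructose 6-phosphate, stood at 197, 202 and 194 CPM against 275, 239 and 208 CPM. Its libraries did not overlap either, by a narrow margin (0.28 ± 0.13, edgeR adjusted p = 0.178). The 3′ ends of Gpi1 match 82 annotated genes at up to 93.8% identity, 54 of them in the table, so some reads could be shared.

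Aldoa, the widely expressed aldolase that splits fructose 1,6-bisphosphate, was the only member called higher. It had 1844, 2185 and 1984 UMIs in Aire_WT and 940, 1856 and 1259 in Aire_KO, or 610, 728 and 671 CPM against 973, 1006 and 776 CPM. Every Aire_KO library was above every Aire_WT library, with 749 the nearest. The difference was 0.46 ± 0.14 (edgeR adjusted p = 0.0387), from a mean of 670 ± 59.0 to 918 ± 125 CPM (SD, n = 3 each). The call was lost with scaling by library totals (0.26, adjusted p = 0.217) and on leaving out any library but 749 (adjusted p = 0.0613 to 0.157). The authors' deposited table gives Aldoa a log2 fold change of -0.47 for Aire_WT over Aire_KO with an adjusted p of 0.0216, and it was the only 1 of the 10 with an adjusted p under 0.05 there. The 3′ ends of Aldoa match 5 pseudogenes at 91.0% to 94.6% identity, none of them in the table. Tpi1, which interconverts the triose phosphates made by aldolase, stood at 314, 364 and 383 against 392, 374 and 349 CPM and overlapped throughout (0.07 ± 0.13, edgeR adjusted p = 0.764).

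In the lower part, none of the enzymes was called with all 6 libraries. Pgk1, which makes the first ATP of the pathway, had 23, 21 and 36 UMIs in Aire_WT and 6, 20 and 33 in Aire_KO (0.54 ± 0.39, edgeR adjusted p = 0.379). Pgam1, the phosphoglycerate mutase of most tissues, had 11, 26 and 24 UMIs against 11, 11 and 6 (-0.07 ± 0.46, edgeR adjusted p = 0.938). At these counts only large differences would have been detectable for either gene, and the genotypes overlapped. Eno1, alpha-enolase, stood at 268, 224 and 261 CPM in Aire_WT and 256, 331 and 364 CPM in Aire_KO. Libraries 748 and 749 were above all of Aire_WT and 746 was not (0.34 ± 0.15, edgeR adjusted p = 0.135), and without 746 the difference was called (0.47, adjusted p = 0.021). The 3′ end of Eno1 is 99.7% identical to that of Eno1b, an enolase gene with 3 to 7 UMIs per library, so reads could be divided between them.

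Pkm and Ldha, which close the pathway, were nearly level between the genotypes. Pkm, the pyruvate kinase that makes the last ATP, stood at 617, 682 and 611 against 735, 677 and 662 CPM (0.12 ± 0.13, edgeR adjusted p = 0.568). Ldha, the lactate dehydrogenase subunit that favours lactate, stood at 466, 597 and 580 against 561, 613 and 585 CPM (0.10 ± 0.14, edgeR adjusted p = 0.668). A 3′ tag cannot tell the M1 and M2 forms of Pkm apart, because they differ in an internal exon. For Gapdh the genotype difference was 0.54 ± 1.06 (edgeR adjusted p = 0.778). Its value followed whichever library was left out, from -0.42 without 749 to 1.11 without 746. With 753 and 746 both left out it was 0.53 (adjusted p = 0.236), from libraries chosen for their level.

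Over the 10 genes, edgeR called 1 higher and 0 lower in Aire_KO, where 8.59% of all tested genes were called higher and 12.1% lower. At an unadjusted p under 0.05, 3 were higher (Aldoa, Eno1 and Hk2) and 0 lower, and DESeq2 called 1 higher and 0 lower. Levels were fully separated by genotype for 3 of the 10 (Aldoa, Gpi1 and Hk2), against 36.5% of all tested genes, a share near the background. The fitted log2 fold change was above 0 for 9 of the 10, against 48.1% of tested genes, with a median of 0.31 against -0.02. It was also above 0 for 18 of 23 listed common reference genes, Gapdh and Pgk1 included, with a median of 0.21. Scaling by library totals moved the median of all tested genes to -0.23, and there 6 of the 10 were above 0, against 31.3% of tested genes, with a median of 0.11. Over all the fits run, the median of the members lay 0.22 (without 753) to 0.42 (no filter) above that of all tested genes.

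**Figure D3:**
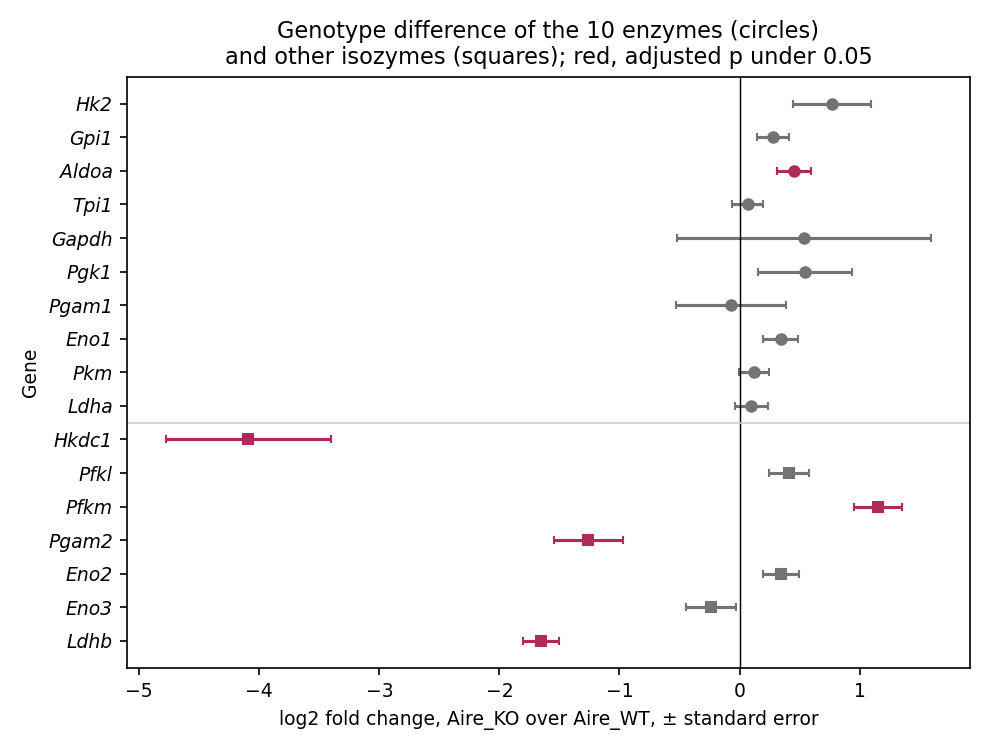
Log2 fold change of Aire_KO over Aire_WT with its standard error (horizontal bars) for the 10 enzymes (circles) and for 7 other isozymes or phosphofructokinase genes (squares), red where the edgeR adjusted p was under 0.05. The 10 enzymes lie between -0.07 and 0.77, while Hkdc1, Pgam2 and Ldhb lie far to the left and Pfkm to the right.

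The clearest genotype differences at these steps were in other isozymes, several of them known from particular tissues. Of 20 further isozyme symbols listed, 16 were in the table and 13 were tested. In Aire_KO 5 of them were called lower and 0 higher, against 12.1% lower and 8.59% higher among all tested genes. Here and below, counts of genes that fell or rose are of genes called by edgeR. The median log2 fold change was -0.24 against -0.02. Ldhb, the lactate dehydrogenase subunit typical of heart, stood at 134, 112 and 125 CPM in Aire_WT and 41.4, 40.1 and 36.4 CPM in Aire_KO. The genotypes were far apart, and the mean fell from 123 ± 10.9 to 39.3 ± 2.62 CPM (SD, n = 3 each; -1.66 ± 0.15, edgeR adjusted p = 7.7e-06). Ldhb held its call in all 13 alternative fits. Its 3′ end matches 1 pseudogene, which was not in the table, over 109 nt at 99.1% identity. Ldhc, the testis form, had 19, 7 and 23 UMIs against 0 in each Aire_KO library, at least 8.06-fold lower with a floor of 3 UMIs for Aire_KO as a whole, and was below the filter for testing.

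Hkdc1, a hexokinase domain protein, had 20, 29 and 28 UMIs in Aire_WT and 0, 0 and 2 in Aire_KO, so Aire_WT was 19.0 times as high, with an exact 95% interval of 5.08 to 160 for counting error (edgeR adjusted p = 0.000852). Eno4, an enolase-like protein of sperm, had 14, 18 and 14 UMIs against 0, at least 7.57-fold lower (edgeR adjusted p = 0.00101). These counts are small, and the Aire_KO group is the shallower.

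Pgam2, the phosphoglycerate mutase of muscle, fell from 31.4, 20.6 and 19.0 CPM to 8.28, 10.3 and 10.5 CPM (-1.26 ± 0.29, edgeR adjusted p = 0.00646). Beside it, the summed level of 5 genes of the 6 listed muscle markers was 35.04 to 40.6 CPM in Aire_WT and 12.4 to 22.2 CPM in Aire_KO, with Myod1 at 0 in all Aire_KO libraries, and its part in the result was not tested. Eno3, the muscle enolase, stood at 178, 164 and 184 CPM against 103, 127 and 210 CPM. Libraries 746 and 748 were below Aire_WT and 749 above it (edgeR adjusted p = 0.475), and without 749 the fall was called (adjusted p = 0.00895). Eno2, the neuronal enolase, stood at 159, 177 and 172 CPM against 179, 205 and 258 CPM (log2 difference 0.35, edgeR adjusted p = 0.127).

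At the phosphofructokinase step, the main point of control of glycolysis, 1 of 6 tested genes rose and 0 fell, against 8.59% higher and 12.1% lower among all tested genes. Pfkm, the muscle-type subunit, rose from 16.2, 23.0 and 25.4 CPM to 51.7, 45.0 and 48.1 CPM, with no overlap (1.16 ± 0.20, edgeR adjusted p = 0.00103). Pfkl, the liver-type subunit, stood at 80.7, 89.2 and 78.5 CPM against 140, 106 and 88.7 CPM (log2 difference 0.41, edgeR adjusted p = 0.11). Pfkfb3, which makes the activator fructose 2,6-bisphosphate, was at 40.9 ± 5.97 and 48.1 ± 5.88 CPM (edgeR adjusted p = 0.437). The lowest values in this list, named after they were seen, were those of Pfkfb4, a relative of Pfkfb3, and Tigar, a fructose bisphosphatase. Their log2 fold changes were -0.82 and -0.99 (edgeR adjusted p = 0.0505 and 0.0945).

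Shares within a step are free of the scaling between libraries. Ldhb made up 22.3%, 15.8% and 17.7% of the summed UMIs of Ldha and Ldhb in Aire_WT and 6.87%, 6.14% and 5.85% in Aire_KO. Eno3 made up 29.4% ± 0.421 of the UMIs of Eno1, Eno2 and Eno3 in Aire_WT and 21.2% ± 3.49 in Aire_KO (SD, n = 3 each). The share of Hk2 among 5 hexokinase genes went the other way, from 9.78% ± 0.988 to 18.2% ± 2.88, as did that of Pfkm in the sum of Pfkl and Pfkm, from 20.5% ± 3.85 to 30.7% ± 4.12. In each of these 4 steps every Aire_KO library lay on the same side of every Aire_WT library, which gave an exact two-sided permutation p of 0.1 (0.125 after Benjamini-Hochberg adjustment over 5 steps), the smallest that 3 against 3 allows. Pgam2, whose share was added after the others were seen, made up 89.6%, 70.5% and 70.0% of the UMIs of Pgam1 and Pgam2 in Aire_WT and 42.1%, 63.3% and 73.9% in Aire_KO. There the genotypes overlapped (exact two-sided permutation p = 0.3, adjusted p = 0.3).

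**Figure D4:**
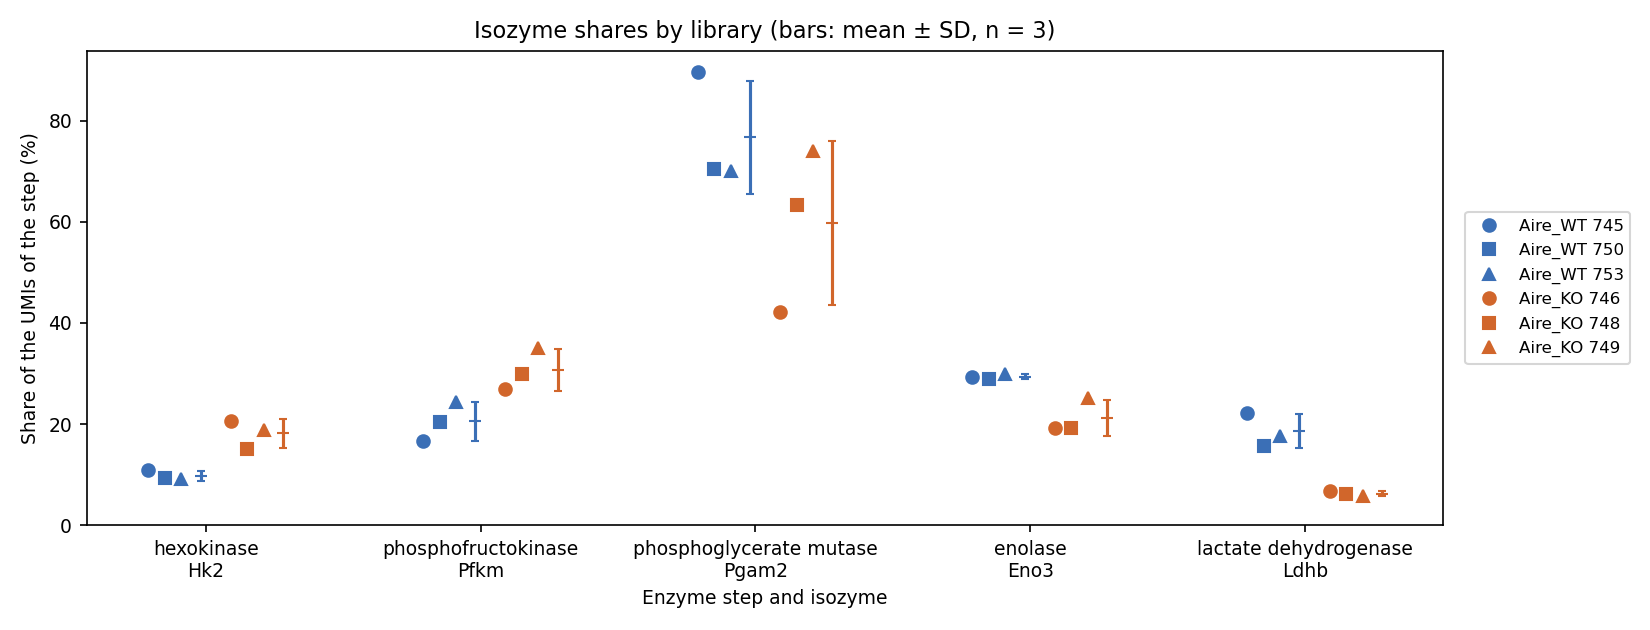
Share of the UMIs of a step (%) held by Hk2, Pfkm, Pgam2, Eno3 and Ldhb in each library, with mean ± SD over 3 libraries beside the points. The shares of Hk2 and Pfkm are higher and those of Eno3 and Ldhb lower in every Aire_KO library than in every Aire_WT library, while those of Pgam2 overlap.

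Routes that feed glycolysis or lead away from it showed scattered differences. Over all 127 listed genes of these routes and their regulators, the isozymes and phosphofructokinase genes above included, 97 were tested, 15 fell and 5 rose, with a median log2 fold change of -0.10, against 12.1% lower and 8.59% higher among all tested genes. Among glucose and lactate transporters, 1 of 8 tested genes fell: Slc5a1, the sodium-coupled glucose carrier of gut and kidney, went from 14, 14 and 18 UMIs to 1, 2 and 1 (edgeR adjusted p = 0.00524). Slc2a6, a sugar carrier of the GLUT family, stood at 145 ± 3.37 and 157 ± 22.2 CPM, Slc16a3, the lactate exporter, at 55.8 ± 7.85 and 71.0 ± 11.9 CPM, and its partner Bsg at 550 ± 9.13 and 522 ± 17.8 CPM, none of them called.

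Glycogen and glucose synthesis held the largest increase. Pgm1, a phosphoglucomutase that links glycogen to glucose 6-phosphate, rose from 92.9, 88.2 and 96.1 CPM to 324, 264 and 301 CPM (1.68 ± 0.13, edgeR adjusted p = 2.86e-06). Pygl, the liver-type glycogen phosphorylase, rose from 59.5 ± 6.21 to 115 ± 12.3 CPM (by 0.96 on the log2 scale; edgeR adjusted p = 0.000447). In the same list, Fbp1 and Fbp2, the fructose bisphosphatases that reverse the phosphofructokinase step, fell by 2.21 and 2.22 on the log2 scale (edgeR adjusted p = 0.0103 and 0.00357). Gys2, the glycogen synthase of liver, had 15 UMIs in each Aire_WT library and none in Aire_KO, hence at least 7.40-fold lower (edgeR adjusted p = 0.000917). Pygm, the muscle glycogen phosphorylase, also fell, by 1.36 (edgeR adjusted p = 0.0437), a call lost without 745, 746, 748 or 750 (adjusted p = 0.0825 to 0.157). G6pc3, a widely expressed glucose 6-phosphatase, was not called (adjusted p = 0.19). Of 14 tested genes of this list, 4 fell and 2 rose, against 12.1% and 8.59% of all tested genes. DESeq2 called 3 of them lower and 2 higher. The call of Fbp1 was lost without library 748 (adjusted p = 0.0703).

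In the pyruvate, TCA and pentose phosphate lists most genes were not called. Among all tested genes, 12.1% were called lower and 8.59% higher. Of 9 tested genes of pyruvate entry, Pdhx and Dld, components of the pyruvate dehydrogenase complex, fell by 0.75 and 0.58 on the log2 scale (edgeR adjusted p = 0.0265 and 0.0332), and Mpc2, a subunit of the mitochondrial pyruvate carrier, rose by 0.55 (adjusted p = 0.0486). Of 18 tested genes of the TCA cycle, Sucla2 and Idh3a fell, by 0.67 and 0.51 (edgeR adjusted p = 0.0267 and 0.0366). All 5 of these calls were lost without 753 (adjusted p = 0.0894 to 0.141), and each was lost on leaving out at least 2 other libraries in turn. DESeq2 did not call Pdhx, Dld and Idh3a (adjusted p = 0.0792, 0.0619 and 0.103) and called Mpc2 and Sucla2. The other named genes of these lists, Mpc1, Pdhb, Sdhb, Mdh1 and Mdh2, were not called (edgeR adjusted p = 0.133, 0.494, 0.43, 0.282 and 0.699). In the pentose phosphate pathway, edgeR called 0 of 7 tested genes, 0 had an unadjusted p under 0.05 and DESeq2 called 0. Pgls, the lactonase of the pathway, and Taldo1, transaldolase, stood at 439 ± 9.71 and 453 ± 14.7 CPM and at 390 ± 9.99 and 398 ± 4.42 CPM, and Pgd, a dehydrogenase of the pathway, had an adjusted p of 0.457.

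The list of HIF, MYC and hypoxia-induced genes gave 1 call in each direction among 22 tested genes. These shares lie below the 8.59% higher and 12.1% lower of all tested genes. Myc stood at 32.1, 36.6 and 31.5 CPM in Aire_WT and 112, 62.4 and 61.0 CPM in Aire_KO, highest in 746 and without overlap (1.19 ± 0.22, edgeR adjusted p = 0.00172). Car9, a carbonic anhydrase induced by hypoxia, fell from 10.2 ± 2.80 to 3.67 ± 0.540 CPM (edgeR adjusted p = 0.0163), a call lost without 748 (adjusted p = 0.0541) or 753 (0.077). Hif1a, named after its values were seen, was at 39.5 ± 5.97 and 36.5 ± 8.38 CPM (edgeR adjusted p = 0.827). Adm, Bnip3 and Ddit4, hypoxia-induced genes, were not called (edgeR adjusted p = 0.173, 0.318 and 0.747). Without 746, Bnip3 was called higher (adjusted p = 0.00988).

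**Figure D5:**
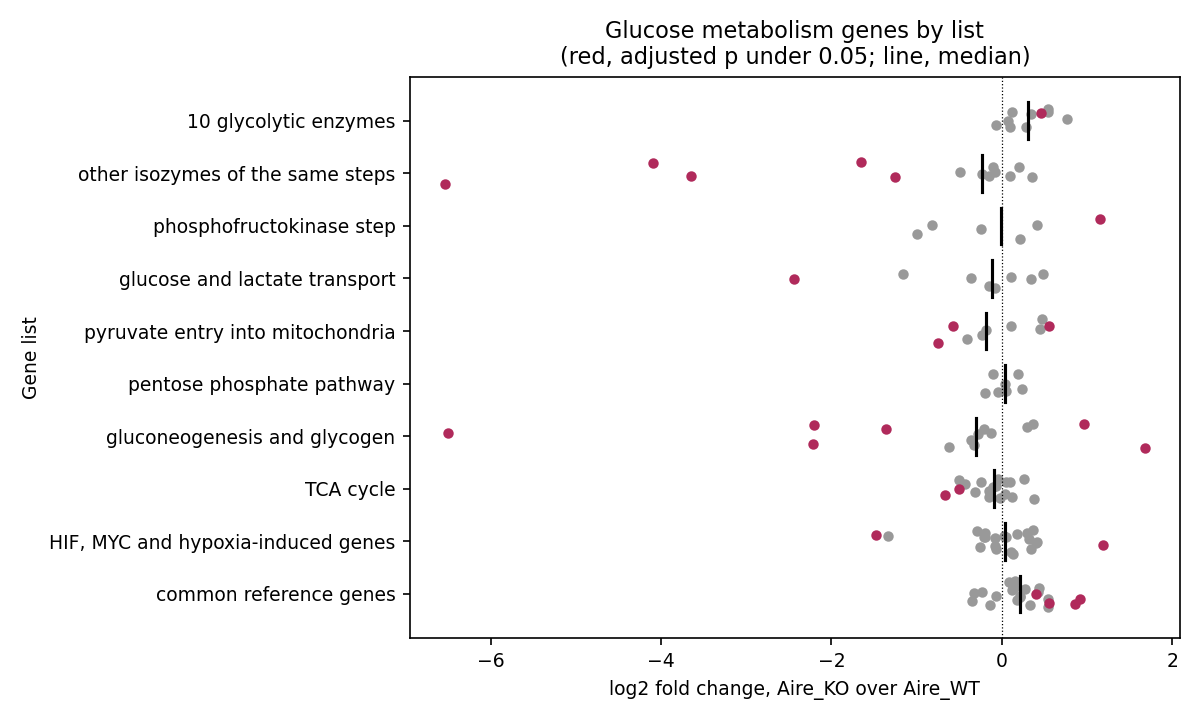
Log2 fold change of Aire_KO over Aire_WT for each tested gene of the 10 glycolytic enzymes and of 9 other lists, red where the edgeR adjusted p was under 0.05, with a black line for the median of each list. The 10 enzymes lie between -0.07 and 0.77 (median 0.31), while single genes of the isozyme and gluconeogenesis lists reach far lower values.

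Common reference genes give the frame in which Gapdh is usually read. Of 23 listed, Gapdh and Pgk1 included, 4 rose and 0 fell, against 8.59% higher and 12.1% lower among all tested genes, with a median log2 fold change of 0.21. At an unadjusted p under 0.05, 7 were higher and 1 lower, and DESeq2 called 5 higher and 0 lower. Ubb, a ubiquitin gene, and Pfn1, the actin-binding profilin, rose by 0.85 and 0.91 (edgeR adjusted p = 0.000687 and 0.00314), and the ribosomal genes Rplp0 and Rpl13a by 0.55 and 0.41 (adjusted p = 0.00916 and 0.0405). Actb, beta-actin, stood at 7032, 8164 and 7406 CPM in Aire_WT and 9171, 9963 and 9256 CPM in Aire_KO (log2 difference 0.33, edgeR adjusted p = 0.105), and B2m at 6754 ± 855 and 6129 ± 1545 CPM (adjusted p = 0.646). Rplp0 lost its call without 750 (adjusted p = 0.0626), and Rpl13a did so without any library but 749 (adjusted p = 0.0525 to 0.133).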

How the data were processed

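RNA of sorted mTEChi was counted by MARS-seq, per the labels' protocols, in 6 libraries of 2 genotypes. The deposited table holds UMI counts per gene, per the file headers. It also holds counts divided by size factors (a signal, with its mean), regularized log2 values, and a log2 fold change, p-value and adjusted p-value of Aire_WT over Aire_KO, all by the authors. Per the submitters' processing notes, the tools were DESeq2, HTSeq, STAR 2.4.2a, cutadapt and bcl2fastq and the build was mm10, with no roles given. For the annotation, the strand setting and multiply matching reads, nothing is given in the sources used here.

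Aire_KO was set against Aire_WT by the quasi-likelihood test of edgeR 4.0.16 under R 4.3.3 on all counts, with TMM scaling, filterByExpr (min.count 10), genotype as the only term and Benjamini-Hochberg adjustment at 0.05 over 11956 genes. The common dispersion was 0.0241. A standard error is the size of the log2 fold change divided by the root of its F value. The steps were checked on simulated counts. Alternatives were library totals, RLE factors, DESeq2 1.42.0, min.count 3, no filter, thinning to the smallest total, each library left out, and 753 and 746 left out together. Intervals and floors (3 UMIs) cover counting error only, at 95% confidence.

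Positions come from GENCODE M21 and 3′ ends were compared with blastn 2.17.0. The members and lists were chosen with earlier results of these data known. Named genes were the members, up to 5 called genes per list by p, the 3 tested genes of each list with the highest mean CPM, the 5 genes most like Gapdh and copies of Gapdh. Ldhc, Pygm, Hif1a, Rps2, Mir682, Rpl37a, Pfkfb4, Tigar, Ncapd2 and Iffo1 were named after their values were seen. For 1 gene counted among the isozymes, values are not reported here.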

Additional observations from a re-analysis of the deposited data

How the results depend on the processing

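In all 13 alternative fits 0 members were called lower. The 1 member called higher became 0 with scaling by library totals, with thinning to the smallest total and without 753 and 746 together, and ranged from 0 to 1 with each library left out. In that range, the call without 746 was Eno1 and that without 749 was Aldoa. For the 97 tested genes of the other routes, the 5 calls higher ranged from 4 to 9 and the 15 calls lower from 9 to 16 with each library left out. DESeq2 called 5 higher and 11 lower. The calls lower were 25 with library totals, 7 with thinning and 9 without 753 and 746 together, and the range's ends lie at 749 (9 higher, 16 lower) and 753 (9 lower).

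Directions that turned belonged to genes that were not called. With library totals, the log2 fold changes were -0.083 for Pkm, -0.10 for Ldha, -0.13 for Tpi1, -0.092 for Slc2a6, -0.16 for Pgls, -0.17 for Taldo1, -0.015 for Pgd and -0.11 for Mdh2. With thinning they were -0.0015 for Pgls and -0.031 for Taldo1. Without 753 and 746 together they were 0.021 for Pdhb, -0.0078 for Pgd, -0.0052 for Mdh2 and 0.095 for B2m. With each library left out, they ranged from -0.42 to 1.11 for Gapdh, -0.011 to 0.16 for Ldha, -0.014 to 0.13 for Tpi1, -0.47 to 0.25 for Pgam1, -0.017 to 0.17 for Mdh2, -0.52 to 0.21 for Ddit4 and -0.36 to 0.0016 for B2m. The cause was not tested.

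Adding the 7 copies moved the ratio of the other libraries to the low one for Gapdh to 22.9 in Aire_WT and 23.3 in Aire_KO, and it was 48.4 and 60.3 with thinning. Over all tested genes, 1027 were called higher and 1451 lower, against 561 and 2083 with library totals. No paired analysis was possible because the library numbers differ between the genotypes. Hk2, Pgk1 and Pgam1, with 6 to 36 UMIs in every library, had the fewest UMIs of the members, and with 3 libraries a genotype small differences of any member could go uncalled.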

Other observations

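Rps2, a ribosomal protein gene, was 26.0-fold lower in Aire_WT 753 than in the mean of 745 and 750, at 56.9 CPM against 1700 and 1257 CPM, and stood at 3021, 1964 and 2454 CPM in Aire_KO. It was not called between the genotypes (edgeR adjusted p = 0.228).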
